A study of Mus musculus with 8 samples.

Results

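The genes described here are 10 transcription regulators of the immediate early response, namely Fos, Fosb, Jun, Junb, Atf3, Egr1, Egr2, Nr4a1, Klf4 and Ier2. They were taken by name from the 16309 genes that the arrays' transcript accessions could be matched to, and each was represented by its brightest probe. They were measured in mucosa of the rectum and of the middle colon, in mice lacking the gene for the cytokine interleukin 18 (IL18ko) and in wild-type (WT) mice. Within each tissue the 4 mouse groups were IL18ko stress, IL18ko control, WT stress and WT control. Stress was isolation in a single cage at 10 to 12 weeks of age, after group housing with brothers. The controls were killed at the start of that isolation and were therefore younger by its length, which one label gives as 8 days and another as 16 days. Every tissue of every mouse group gave 1 single-colour array, 8 in all, and its RNA came from a pool of 5 mice, so there were no replicate arrays and the spread between mice was not measured. The strain background of the IL18ko mice, and whether the rectum and colon pools came from the same mice, are not given in the sources used here.

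Immediate early genes are transcribed within minutes of a signal reaching the cell, without new protein synthesis, because the factors that switch them on already sit on their promoters. Serum response factor with its ternary complex partners binds CArG boxes, and CREB binds cyclic AMP response elements. Fos and Fosb pair with Jun or Junb to form AP-1, and Atf3 belongs to the related ATF/CREB family. Egr1 and Egr2 are zinc finger proteins that bind GC-rich sites, and Nr4a1 is an orphan nuclear receptor. Klf4 is a zinc finger factor that in the mouse colon also marks differentiated epithelium and is needed for goblet cells to mature, so its level is not only a readout of a recent signal. Ier2 encodes a nuclear protein induced together with Fos.

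The 250 bases before the transcription start were matched in RefSeq for 8 of the 10 genes, all but Egr1 and Ier2. Of those printed here, Klf4 is shown because its difference between genotypes was the largest of the 10, and Fos, Egr2 and Atf3 because they carry the core of a cyclic AMP response element. All are given 5′ to 3′ on the strand of the gene, in build GRCm38.p6. Capitals mark the letters searched for on both strands.
Klf4, chr4:55532476-55532725, minus strand, capitals for 2 EGR sites: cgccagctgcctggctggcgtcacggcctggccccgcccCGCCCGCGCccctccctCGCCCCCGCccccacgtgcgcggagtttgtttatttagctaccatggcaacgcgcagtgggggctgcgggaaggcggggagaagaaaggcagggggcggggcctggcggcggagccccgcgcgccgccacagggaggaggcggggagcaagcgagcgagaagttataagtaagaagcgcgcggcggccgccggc
Fos, chr12:85473640-85473889, plus strand, capitals for TGACGT and then TATAAA: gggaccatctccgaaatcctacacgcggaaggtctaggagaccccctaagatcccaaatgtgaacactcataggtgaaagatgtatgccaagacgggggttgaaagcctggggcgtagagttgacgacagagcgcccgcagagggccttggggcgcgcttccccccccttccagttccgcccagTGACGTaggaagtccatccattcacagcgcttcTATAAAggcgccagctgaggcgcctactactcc
Egr2, chr10:67537619-67537868, plus strand, capitals for a CArG box and then TGACGT read on the other strand: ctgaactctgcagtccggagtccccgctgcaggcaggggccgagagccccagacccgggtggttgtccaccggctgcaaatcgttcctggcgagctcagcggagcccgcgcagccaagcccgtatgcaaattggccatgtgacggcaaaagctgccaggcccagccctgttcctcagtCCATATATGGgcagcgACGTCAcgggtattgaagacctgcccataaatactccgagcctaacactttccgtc
Atf3, chr1:191183334-191183583, minus strand, capitals for TGACGT read on the other strand: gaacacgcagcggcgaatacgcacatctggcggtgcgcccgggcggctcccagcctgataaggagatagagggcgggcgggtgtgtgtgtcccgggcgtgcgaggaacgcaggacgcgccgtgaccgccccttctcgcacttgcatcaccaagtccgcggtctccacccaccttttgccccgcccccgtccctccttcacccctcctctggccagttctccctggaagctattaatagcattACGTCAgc

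The core TGACGT occurred in 3 of the 8 promoters, against 7.29% of 27025 genes. The EGR site GCGNGGGCG also occurred in 3 of the 8, those of Klf4, Fosb and Nr4a1, against 5.33% of genes. A CArG box, CC and GG around 6 letters that are A or T, was found in Egr2 alone of the 8, against 1.62% of genes. TATAAA was found in Fos alone of the 8, against 14.3% of genes, and the AP-1 site TGAGTCA in none of the 8, against 5.16% of genes. Egr2 has 5 listed starts and the window shown belongs to one of them. These are matches of letters in one window and say nothing of binding or of sites outside that window.

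All 10 genes were well above background on all 8 arrays. Levels are given as log2 of the signal relative to the 75th percentile of the same array, so 0 is a level at that percentile, and differences between arrays are log2 as well. The arrays had 43379 spots each, of which 62.2% to 66.4% were well above background, and none was saturated. The labels were borne out by the targeted gene. Il18 lay between -7.85 and -7.48 on the 4 IL18ko arrays, where it was never above background, and between 2.76 and 5.88 on the 4 WT arrays. All rectum arrays were on one slide and all colon arrays on another, so slide and tissue cannot be told apart. The 4 mouse groups held the same 4 positions on both slides, WT at 1 and 2 and IL18ko at 3 and 4. Position therefore cannot be told apart from mouse group or genotype. Marker genes of colonic epithelium were above background on all arrays, 9 of 9, with a summed level of 903 to 1159 times the 75th percentile. In such tissue a change in the number of cells of a type and a change in RNA per cell cannot be told apart.

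**Figure D1:**
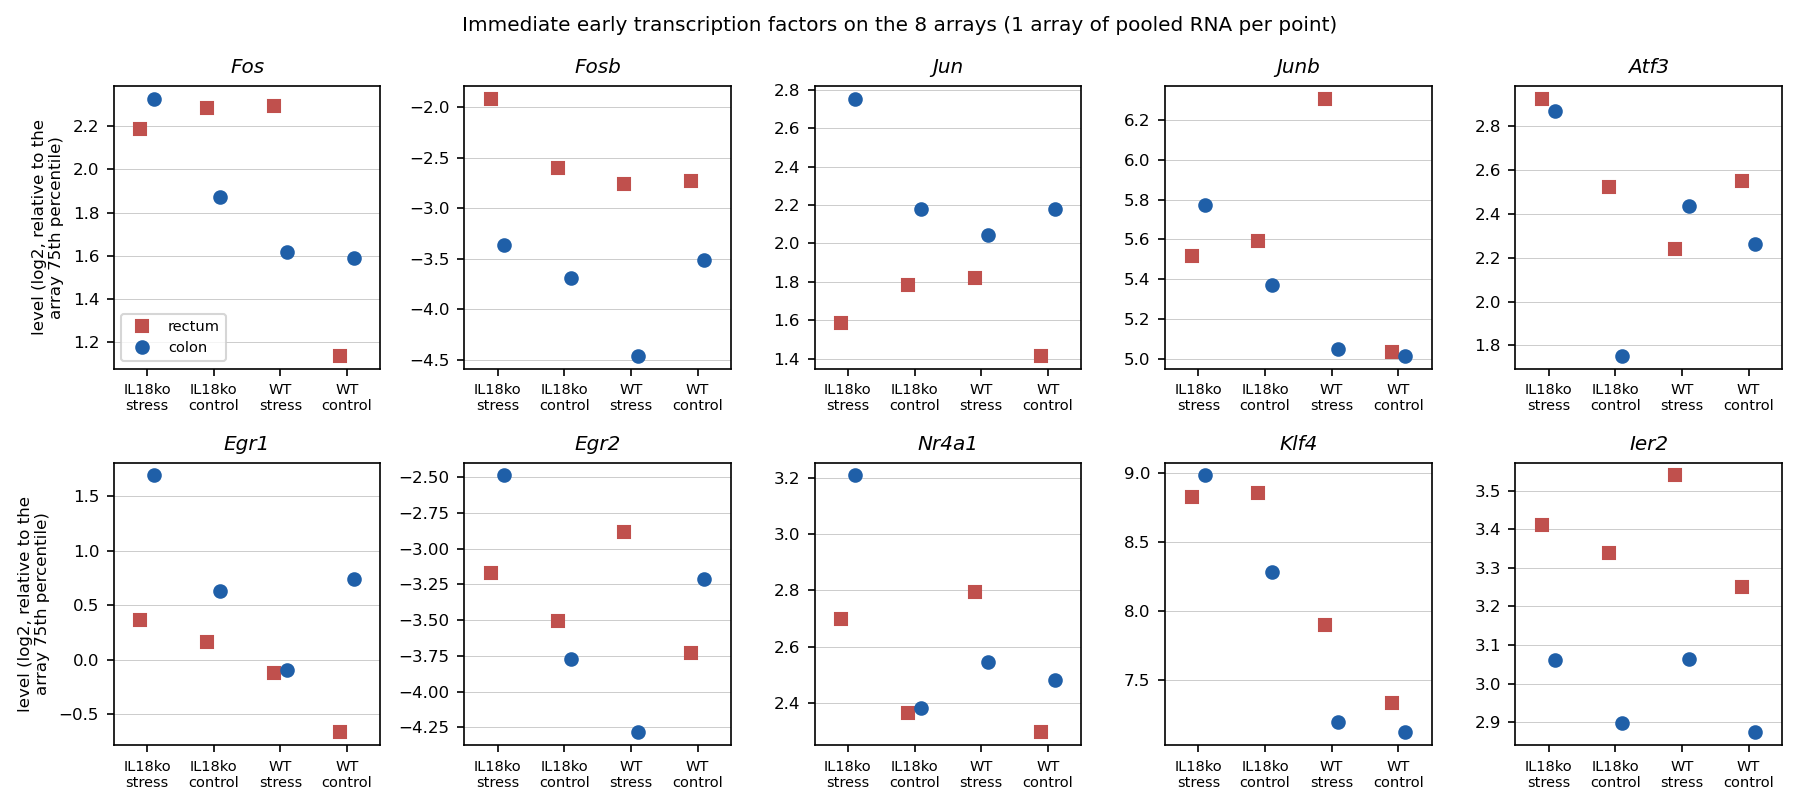
Level of each gene (vertical axis, log2 relative to the 75th percentile of the array) in the 4 mouse groups (horizontal axis), with squares for rectum and circles for colon. Each point is 1 array of RNA pooled from 5 mice and there are no error bars because no group was replicated. Klf4 separates IL18ko from WT arrays in both tissues, Fosb and Ier2 are higher and Jun is lower on every rectum array than on every colon array, and each axis has its own range.

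The first comparison asked how the genes differ between IL18ko and WT mice. Klf4, Egr1 and Fos were higher in IL18ko mice, by 2.54-fold, 1.68-fold and 1.42-fold, and the other 7 did not pass the test. The test was limma's, fitted to the mean of rectum and colon in each of the 4 mouse groups, so that n = 2 mouse groups for each genotype, and a gene was called at an adjusted p under 0.05. Of all 12716 genes tested, 13% were called and 6.61% were called higher in IL18ko mice, so that 3 of 10 is to be read against those shares. The median difference over the 10 genes was 0.25, against -0.0031 over all genes.

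Klf4 lay at 8.82 in stress rectum, 8.85 in control rectum, 8.98 in stress colon and 8.28 in control colon of IL18ko mice. In the same order it lay at 7.90, 7.34, 7.20 and 7.12 in WT mice. Every IL18ko array was above every WT array, and the smallest of the 4 differences at matched tissue and housing was 0.92 and the largest 1.78. The fitted difference was 1.34 ± 0.13 (SE, adjusted p = 5.14e-05, higher in 4 of 4 pairs). Klf4 was the only one of the 10 whose genotype groups did not overlap, against 8.23% of all genes. Fitted within the rectum slide alone the difference was 1.22 (adjusted p = 0.00399), and within the colon slide alone 1.47 (adjusted p = 0.00864). These within-slide fits were added after seeing the data and use the same arrays.

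Egr1 lay at 0.37 in stress rectum, 0.16 in control rectum, 1.69 in stress colon and 0.63 in control colon of IL18ko mice. In WT mice it lay at -0.12, -0.66, -0.09 and 0.74 in the same order. The groups overlapped, since the WT control colon array was above 3 of the 4 IL18ko arrays. The fitted difference was 0.75 ± 0.15 (SE, adjusted p = 0.00712, higher in 3 of 4 pairs), and the pairs ran between -0.11 and 1.78. The stress colon pair gave the highest value, and in fits of the arrays as independent the difference was 0.52 without the IL18ko stress colon array (adjusted p = 0.379) and 0.46 without the WT stress colon array (adjusted p = 0.243).

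Fos is printed at 10 spots per array, and the SD between its spots was 0.03 to 0.07, which measures the array and not the mice. It lay at 2.19 in stress rectum, 2.29 in control rectum, 2.33 in stress colon and 1.87 in control colon of IL18ko mice, against 2.30, 1.14, 1.62 and 1.59 in WT mice. The single WT array that reached the IL18ko range was that of stress rectum. The fitted difference was 0.51 ± 0.11 (SE, adjusted p = 0.0133, higher in 3 of 4 pairs). In fits of the arrays as independent, leaving out 1 array at a time, Fos passed only without the WT stress rectum array, at 0.70 (adjusted p = 0.0249), and without the WT control rectum array it was 0.31 (adjusted p = 0.407).

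The calls depended on the model. With the 8 arrays taken as independent, Klf4 alone of the 10 was called (adjusted p = 0.0222), with adjusted p = 0.182 for Egr1 and 0.203 for Fos, and 32 probes were called in place of 3043. The estimated correlation between the rectum and colon arrays of a mouse group was -0.470. Without the variance trend none of the 10 was called (Klf4 adjusted p = 0.0627). Over 20 alternatives the difference stayed between 1.22 and 1.48 for Klf4, which passed in 12 of them, with adjusted p up to 0.219. It stayed between 0.46 and 0.99 for Egr1 and between 0.31 and 0.70 for Fos, each of which passed in 7.

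Among the 7 genes that did not pass, the largest fitted differences were those of Fosb, 0.47 ± 0.20 (SE, adjusted p = 0.150), and Egr2, 0.29 ± 0.20 (SE, adjusted p = 0.383). The AP-1 partners Jun and Junb were both at 0.21, with SE of 0.10 and 0.13 and adjusted p of 0.192 and 0.311. Junb had its highest level on a WT array, 6.30 in stress rectum, where the IL18ko array was at 5.52. Atf3 was at 0.15, Nr4a1 at 0.13 and Ier2 at -0.0049, and their adjusted p ran between 0.453 and 0.983. By its brightest probe Ier2 differed between genotypes by 0.13 at most in any pair. Its second, dimmer probe lay at -3.48 in IL18ko and -2.55 in WT stress rectum. With the mean of both probes the fitted difference was -0.18 (adjusted p = 0.294).

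The second comparison asked whether the 10 genes differed between isolated and control mice. The controls were killed at the start of isolation, so housing cannot be told apart from age or time of killing. Within a genotype it cannot be told apart from position on the slide either. None passed the test over both genotypes and tissues, where limma called 0.0629% of all genes. At an unadjusted p under 0.05 there were 5 of 10 genes, and 2545 of 26265 probes. The median difference over the 10 genes was 0.34 in stress over control, against 0.03 over all genes.

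Nr4a1 had the lowest adjusted p. It lay at 2.70 in IL18ko rectum, 2.79 in WT rectum, 3.21 in IL18ko colon and 2.54 in WT colon of stress mice, against 2.36, 2.30, 2.38 and 2.48 in control mice. Every stress array was above every control array, which held for 1 of the 10 genes and for 0.645% of all genes. The difference was 0.43 ± 0.11 (SE, adjusted p = 0.203, higher in 4 of 4 pairs), and the pairs ran between 0.06 and 0.83. Fitted to the authors' deposited ratios, limma gave an almost unchanged difference of 0.44 (adjusted p = 0.0145), the only one of 20 alternatives in which Nr4a1 passed. Those ratios hold fewer probes, over which variances were pooled and p-values adjusted.

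Junb, at 0.41 ± 0.13, and Fos, at 0.39 ± 0.11 (SE), had adjusted p of 0.336 and 0.314, each with 3 of 4 pairs higher. Atf3 and Klf4 followed with 0.35 ± 0.15 and 0.33 ± 0.13 (SE), with adjusted p of 0.478 and 0.461. By its brightest probe Ier2 was higher in 4 of 4 pairs by 0.07 to 0.29, with a fitted difference of 0.18 ± 0.10 (SE, adjusted p = 0.600). Its second probe was higher in the same 4 pairs, most in WT rectum, where it lay at -2.55 against -3.30. In IL18ko rectum that probe hardly differed, at -3.481 against -3.484. Fosb was at 0.0075 ± 0.20 (SE), with pairs between -0.95 and 0.69.

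**Figure D2:**
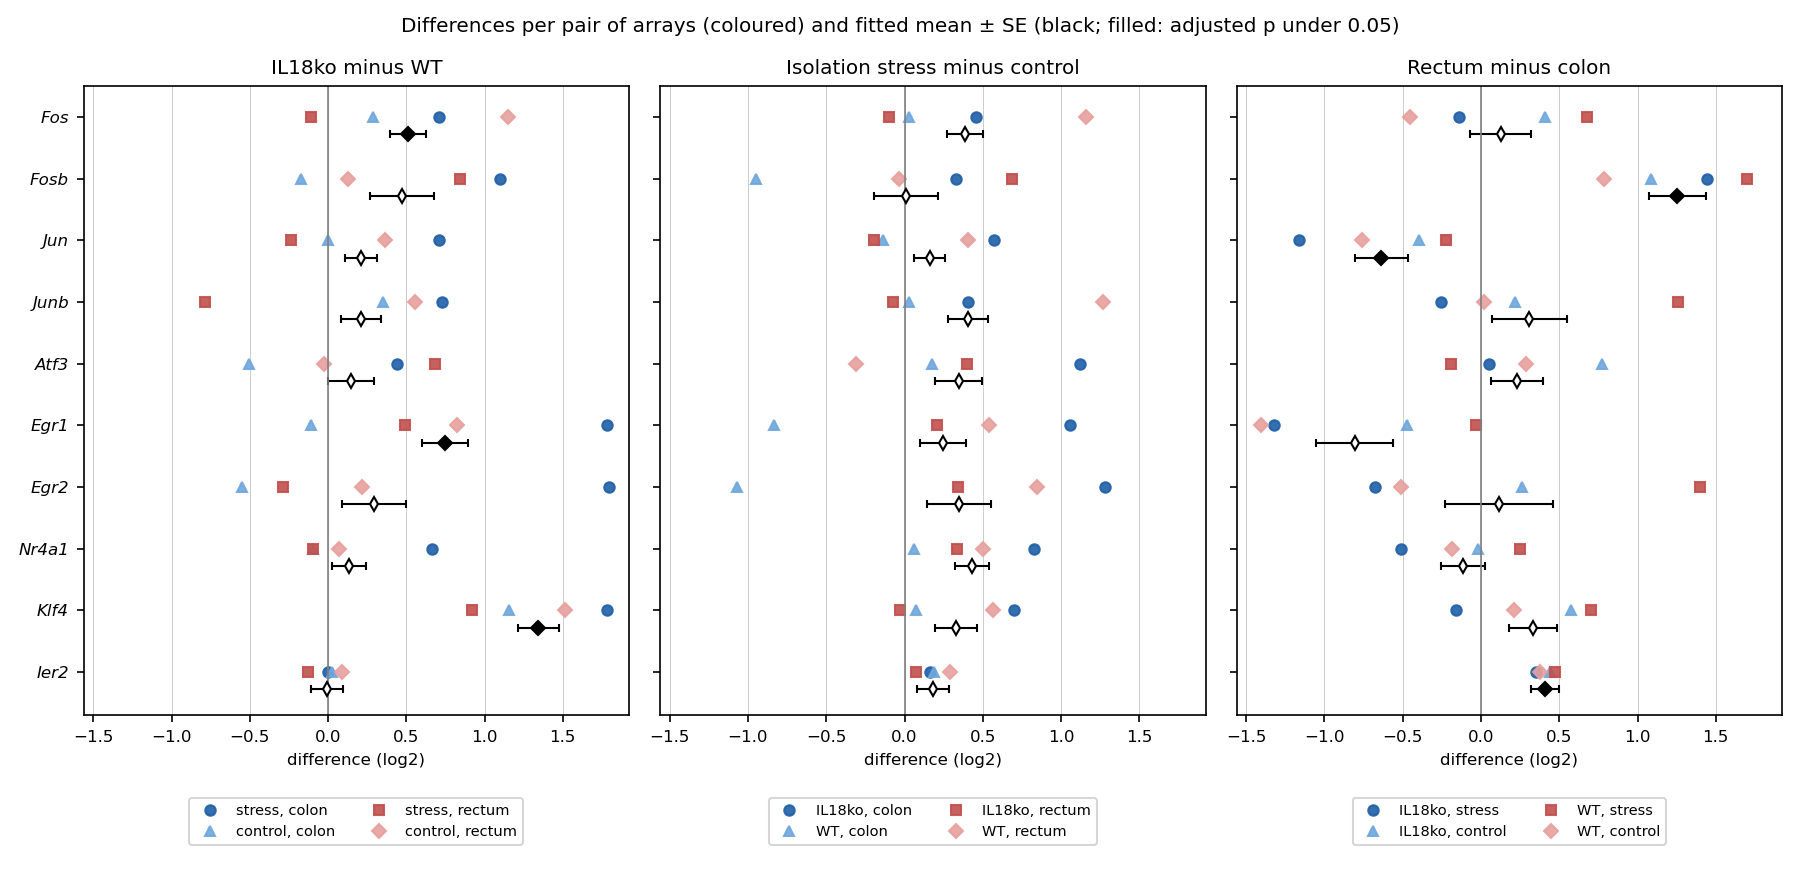
Differences of each gene (rows) in log2 units for IL18ko minus WT, stress minus control and rectum minus colon. Coloured points are the 4 pairs of arrays and black diamonds are fitted means ± SE, filled where the adjusted p was under 0.05. Klf4, Egr1 and Fos are filled in the genotype panel, none in the stress panel, and Fosb, Jun and Ier2 in the tissue panel, while the spread of the pairs is wider than the SE for most genes.

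The 4 stress pairs each set 1 array against 1 array, so their differences have no test, and a gene was counted at a difference of 2-fold or more. In IL18ko colon all 10 genes were higher on the stress array, by 0.16 to 1.28 with a median of 0.64. Egr2 at 1.28, Atf3 at 1.12 and Egr1 at 1.06 passed 2-fold, as did 2.79% of all genes either way. Nr4a1 followed at 0.83, Klf4 at 0.70, Jun at 0.57, Fos at 0.45, Junb at 0.40, Fosb at 0.33 and Ier2 at 0.16. The median difference of all genes between the same arrays was 0.04.

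In WT colon the picture was mixed. Stress minus control was -1.07 for Egr2, -0.95 for Fosb and -0.83 for Egr1, and of these Egr2 alone passed 2-fold, as did 3.25% of all genes. The other 7 genes lay between -0.14 and 0.19. Egr2 is also printed at 10 spots, with an SD between spots of 0.07 to 0.24. Its levels in colon were -2.49 in IL18ko stress, -3.77 in IL18ko control, -4.28 in WT stress and -3.22 in WT control. The stress differences thus had opposite signs in colon of IL18ko and WT mice for Egr2, Fosb, Egr1 and Jun, on 1 pair of arrays each.

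In IL18ko rectum none of the 10 genes passed 2-fold, where 2.63% of all genes did. Fosb was highest at 0.69 and Jun lowest at -0.20. In WT rectum Junb at 1.27 and Fos at 1.16 passed 2-fold, as did 5.69% of all genes, and Egr2 followed at 0.84. Junb lay at 6.30 on the stress array, against 5.04 on the control array. Its second probe gave the same order, with 6.09 on the stress array against 4.53 on the control array. Stress minus control was -0.03 for Fosb and -0.31 for Atf3.

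The same arrays can be set against each other by genotype. Among stress mice in colon, Egr2 at 1.79, Klf4 and Egr1 at 1.78 and Fosb at 1.099 were at least 2-fold higher in IL18ko than in WT, where 5.72% of all genes passed 2-fold. Among control mice in colon Klf4 alone passed, at 1.16, where 3.44% of genes did. Among stress mice in rectum none of the 10 passed, where 9.97% of genes did, and Klf4 was at 0.92. Among control mice in rectum Klf4 at 1.52 and Fos at 1.15 passed, where 4.76% of genes did. These pairs use the same arrays as the stress pairs, so a single high or low array enters both.

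Whether the effects differed from each other was tested with limma across all genes. None of the 10 passed for the genotype effect in rectum against that in colon, where 0.55% of genes did. None passed for the stress effect in rectum against that in colon, where 0.181% of genes did. For the stress effect in IL18ko against that in WT, 0% of genes passed. That fit took the rectum and colon arrays of a mouse group as independent, and each combination of genotype and housing was 1 mouse group. Of 26265 probes 310, and of the 10 genes 2, had an unadjusted p under 0.05 there. These were Fosb, whose stress effect was 0.51 in IL18ko and -0.49 in WT, and Atf3, whose effect was 0.76 in IL18ko and -0.07 in WT, both with adjusted p = 0.9999. Without the WT stress colon array, 501 probes and 1 of the 10 genes passed.

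Each array was then set against the mean of the 4 arrays of its tissue. The IL18ko stress colon array was the highest of the 4 colon arrays for 9 of the 10 genes, against 37.1% of all 12716 genes, and it was above the tissue mean for all 10. The exception was Ier2, for which IL18ko minus WT among stress colon arrays was -0.0017. The median deviation of the 10 genes on that array was 0.51. The WT control rectum array was the lowest of the 4 rectum arrays for 8 of the 10 genes, against 24.2% of all genes, and it was above the tissue mean for none, with a median deviation of -0.32. The WT stress rectum array was the highest of the 4 for 6 of the 10 genes, against 40.6% of all genes. These ranks rest on 1 array each and were not tested.

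**Figure D3:**
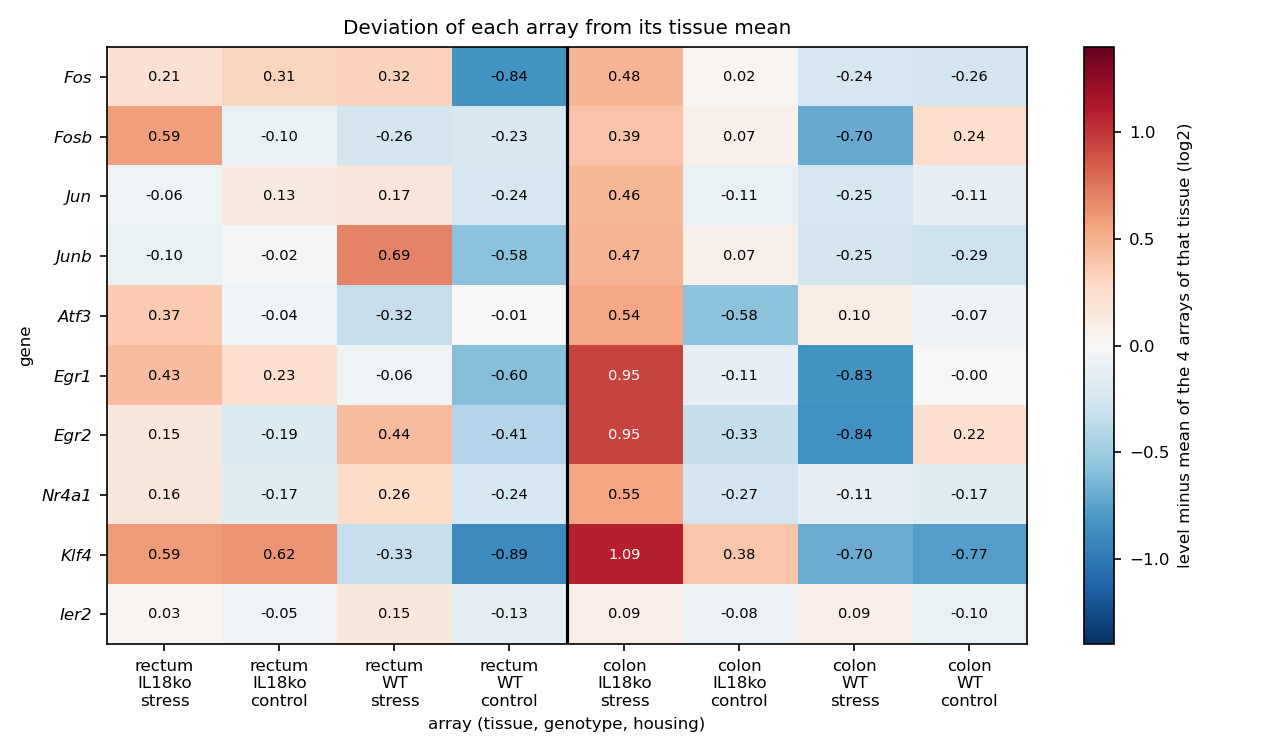
Level of each gene (rows) on each array (columns) minus the mean of the 4 arrays of the same tissue, in log2 units, with red above and blue below that mean. The IL18ko stress colon column is above the mean for all 10 genes and the WT control rectum column is below it for all 10.

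Within a tissue most pairs of the 10 genes correlated positively across arrays. After subtracting the tissue mean, 43 of the 45 pairs did over the 8 arrays, with a median Pearson r of 0.608, against 50.4% of all pairs of the 12716 genes and a median of 0.01. With the tissue difference left in, 40 of 45 did, with a median of 0.408, against 50.3% of all pairs. These are descriptions, since the 8 arrays share slides, scaling and mouse groups. Outside the 10, the genes whose level was most like that of Fos over the 8 arrays, among 11785 ranked, included Arglu1 with r = 0.967, Sema6a, Abcc1, Ift122, Tmem88, Robo4, Cyp26b1, Map3k1 and Mknk2 with r = 0.937.

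For some other cell types, though not all, marker sums set these arrays apart. On the IL18ko stress colon array the smooth muscle markers, 6 of 6 above background, summed to 764, against 508 to 584 on the other 3 colon arrays. Those of fibroblasts and endothelium, 10 of 10 above background, summed to 94.4 there, against 56.3 to 60.2. Those of macrophages and dendritic cells, 8 of 8 above background, summed to 40.2, against 23.0 to 30.6. On the WT stress rectum array the macrophage and dendritic cell markers summed to 85.2, against 33.9 to 47.6 on the other 3 rectum arrays, and the fibroblast and endothelium markers to 128, against 81.6 to 122. The smooth muscle markers summed to 456 there, against 534 to 657 on the other 3 rectum arrays. On the WT control rectum array the fibroblast and endothelium markers summed to 81.6, the lowest of the rectum arrays. Its sums for colonic epithelium at 903, adipocytes at 11.7 and skeletal muscle at 6.69 were also the lowest of the rectum arrays. Its macrophage and dendritic cell sum of 47.6 and smooth muscle sum of 534 were not the lowest. Nor were its other sums, and those of B and plasma cells (10.2) and T and NK cells (0.339) were the highest. On the IL18ko stress colon array the enteric neuron and glia sum was also the highest, at 17.3 against 13.7 to 15.5. So was the B and plasma cell sum, at 36.9 against 22.5 to 36.2 on the other 3 colon arrays. The adipocyte sum there was 63.3, the T and NK cell sum 0.545 and the mast cell sum 2.39. The adipocyte, T and NK cell and mast cell sums lay within the range of the other 3 colon arrays. The colonic epithelium, skeletal muscle, squamous epithelium and neutrophil sums did so too. The part of these cells in the levels of the 10 genes was not tested.

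Between genotypes, all 8 adipocyte markers were called higher in IL18ko mice, with sums of 31.2 to 63.5 on IL18ko arrays against 11.7 to 63.0 on WT arrays. Of the skeletal muscle markers 6 of 12 were called higher, with sums of 3.16 to 164 on IL18ko arrays against 3.55 to 21.8 on WT arrays. Also called higher were 3 of 5 tested markers of enteric neurons and glia, with sums of 5.66 to 17.3 on IL18ko arrays against 3.73 to 15.5 on WT arrays, and 2 of 4 tested markers of squamous epithelium, with sums of 1.84 to 5.78 on IL18ko arrays against 2.13 to 3.50 on WT arrays. Of the smooth muscle markers 2 of 6 were called higher, with sums of 558 to 764 on IL18ko arrays against 456 to 584 on WT arrays. Of the fibroblast and endothelium markers 3 of 10 were called higher, with sums of 59.3 to 122 on IL18ko arrays against 56.3 to 128 on WT arrays. Of the colonic epithelium markers none was called higher and 1 of 9 was called lower, with sums of 952 to 1159 on IL18ko arrays against 903 to 1009 on WT arrays. Of the macrophage and dendritic cell markers 1 of 8 was called higher, with sums of 23.3 to 42.0 on IL18ko arrays against 23.0 to 85.2 on WT arrays, and of the B and plasma cell markers 2 of 7 were called lower, with sums of 7.33 to 36.9 on IL18ko arrays against 9.75 to 36.2 on WT arrays. Each sum is over all markers of a type on the array, tested or not. The part of these cell types in the genotype differences was not tested.

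**Figure D4:**
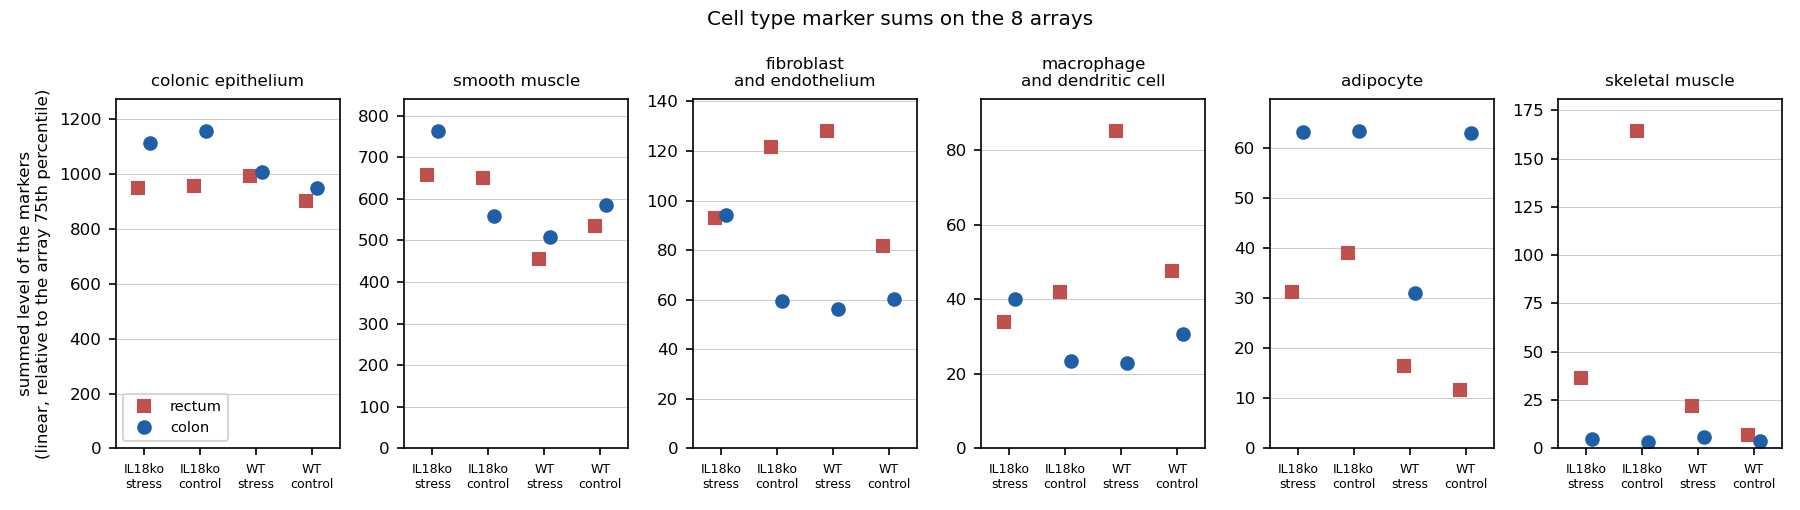
Summed linear level of the markers of 6 cell types (vertical axes, relative to the 75th percentile of the array, starting at 0) in the 4 mouse groups, with squares for rectum and circles for colon, 1 array per point. The IL18ko stress colon array is the highest of the colon arrays for smooth muscle, fibroblast and endothelium, and macrophage and dendritic cell markers, and the IL18ko control rectum array stands out for skeletal muscle at 164.

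The third comparison set rectum against middle colon. Fosb and Ier2 were higher and Jun lower in rectum, and the other 7 genes did not pass, where 29.9% of all genes passed. Fosb lay at -1.92 in IL18ko stress, -2.60 in IL18ko control, -2.76 in WT stress and -2.73 in WT control rectum. In the same order it lay at -3.36, -3.69, -4.46 and -3.51 in colon. The difference was 1.26 ± 0.18 (SE, adjusted p = 0.00350, higher in 4 of 4 pairs). Fosb passed in 12 of 12 alternatives, although with another background correction its difference was 0.73.

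Ier2 lay at 3.41, 3.34, 3.54 and 3.25 in rectum, against 3.06, 2.90, 3.06 and 2.87 in colon, in the order of groups given for Fosb. The difference was 0.41 ± 0.09 (SE, adjusted p = 0.0167, higher in 4 of 4 pairs). The second, dimmer probe of Ier2 did not share it, and with the mean of both probes the difference was 0.22 (adjusted p = 0.202). Jun, whose SD between 10 spots was 0.03 to 0.08, lay at 1.59, 1.78, 1.82 and 1.42 in rectum, against 2.75, 2.18, 2.04 and 2.18 in colon. The difference was -0.64 ± 0.17 (SE, adjusted p = 0.0332, lower in 4 of 4 pairs), and it passed in 9 of 13 alternatives, with adjusted p up to 0.149.

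Egr1 was lower in rectum in 4 of 4 pairs as well, with pairs between -1.41 and -0.03, but with a difference of -0.81 ± 0.24 (SE) its adjusted p was 0.0524. The rectum and colon levels of Fosb, Ier2 and Jun did not overlap, which held for 3 of the 10 genes and for 33.2% of all genes, so this share is near that of genes at large. The sums of skeletal muscle markers, of which 8 of 12 were called higher in rectum, were 6.69 to 164 in rectum against 3.16 to 5.73 in colon. Those of macrophage and dendritic cell markers, 5 of 8 called higher, were 33.9 to 85.2 in rectum against 23.0 to 40.2 in colon. Of the tested neutrophil markers 3 of 4 were called higher. The sums over all 8 neutrophil markers were 1.43 to 2.45 in rectum against 0.0855 to 0.118 in colon, where only 1 to 3 of them were above background. Called lower in rectum were 7 of 8 adipocyte markers, with sums of 11.7 to 39.0 in rectum against 31.0 to 63.5 in colon, and all 5 tested markers of enteric neurons and glia, with sums of 3.73 to 5.79 in rectum against 13.7 to 17.3 in colon. So were 4 of 8 T and NK cell markers, with sums of 0.222 to 0.339 in rectum against 0.459 to 0.746 in colon. Of 7 tested B and plasma cell markers 4 were called lower and 2 higher, with sums of 7.33 to 10.2 in rectum against 22.5 to 36.9 in colon. Of the squamous epithelium markers 2 of 4 were called higher, with sums of 2.51 to 5.78 in rectum against 1.84 to 2.88 in colon. Of 9 colonic epithelium markers 2 were called higher and 2 lower, with sums of 903 to 995 in rectum against 950 to 1159 in colon. Of 5 tested mast cell markers 3 were called higher and 2 lower. Of 10 fibroblast and endothelium markers 2 were called higher, and of 6 smooth muscle markers none was called. The sums again cover all markers of a type, tested or not. The part of these cell types in the tissue differences was not tested.

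A further 4 lists hold genes around the same response. For genotype 10 of their 68 tested genes were called, or 14.7%, near the 13% of all genes. Of 17 tested genes that carry the signal to the promoters, Srf, which encodes serum response factor, was higher in IL18ko mice by 0.50 ± 0.12 (SE, adjusted p = 0.0155), and the other 16 did not pass. Of 13 other immediate early factors, Fosl2, a further Fos protein, was higher by 0.48 (adjusted p = 0.0122) and Myc was lower, at -0.41 (adjusted p = 0.0208). The next list held 21 tested early-response regulators, most of them feedback inhibitors. Of these, Zfp36, which speeds the decay of cytokine mRNA, and Trib1 were higher by 0.46 and 0.39, and Nfkbiz was lower, at -0.43. Of 17 early-response products other than transcription factors, most of them secreted or at the cell surface, the kinase gene Plk3 and the growth factor gene Hbegf were higher by 0.64 and 0.43, while the cytokine genes Il1b and Tnf were lower, at -1.14 and -0.78. For stress, none of the 68 genes passed, where limma called 0.0629% of all genes.

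Between tissues 25 of the 68 genes, or 36.8%, were called, 11 higher and 14 lower in rectum, against 29.9% of all genes. Of the other immediate early factors, Csrnp1 and Fosl2 were higher in rectum, by 0.96 and 0.50, and Nr4a2, a relative of Nr4a1, was lower, at -2.31 ± 0.14 (SE, adjusted p = 0.000107), as were Fosl1 at -1.05 and Ier5 at -0.56. Of the genes that carry the signal, Rps6ka3 and Crtc2 were higher by 0.64 and 0.35 and Crem was lower, at -0.90. Of the early-response regulators 3 were higher, with the clock gene Per1 first at 0.76, and 4 were lower, with Gadd45g first at -1.03. Of the other early-response products 4 were higher, with the chemokine gene Cxcl1 first at 1.56, and 6 were lower, with Thbs1 at -1.58, Plaur at -1.50 and Ccn1 at -1.32 among them.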

How the data were processed

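Feature Extraction 9.5.1.1, per the file headers, gave a background-corrected linear signal intensity per spot. The deposited value table holds, per the labels, a linear ratio of each array to the WT control colon array. Its log2 values correlated with the scanner ratios with r of 0.995 to 0.999 over 18299 features. The authors' scaling and tests are not given in the sources used here.

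Outlier spots were removed, spots averaged per probe, and log2 intensity set relative to the array's 75th percentile. Probes were named by accession through RefSeq (22857 probes, 16309 genes), and 26265 probes (12716 genes by brightest probe) that were well above background on 4 or more of the 8 arrays were tested. Genotype and stress were fitted to the 4 means of rectum and colon, with 1 residual degree of freedom, and tissue and its interactions to the 4 rectum minus colon differences. Genotype by stress was fitted to the 8 arrays, with the rectum and colon of a mouse group taken as independent. Tests used limma 3.58.1 in R 4.3.3 with a variance trend and Benjamini-Hochberg adjustment over all tested probes. Each SE draws on variances pooled over probes, so the pairs can spread more widely than it. With 1 array of pooled RNA per group no pool was repeated, so p-values do not measure a spread between like pools or mice. For genotype and stress the residual is how far the 4 means depart from additive effects of both. For tissue it is the spread of 4 differences between groups that differ in genotype and housing. Single arrays were compared by fold (2-fold) with no test, over genes above background on at least 1 of the pair.

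The members and lists were chosen with earlier results of these data known. Named genes were the 10 members, list genes that passed, and the 10 genes most like Fos, of which 1 is not reported here. Python 3.11.15, pandas 2.3.3, numpy 2.4.6 and matplotlib 3.10.9 were used. The limma step was checked on simulated data.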

Additional observations from a re-analysis of the deposited data

Results flagged for a closer look

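Egr2 moved in opposite directions with stress in the colon of the 2 genotypes, past 2-fold in each. Stress minus control was 1.28 in IL18ko colon and -1.07 in WT colon, each from 1 array against 1 array. This difference within colon was not tested. Over both tissues, the stress effect in IL18ko minus that in WT was 0.92 ± 0.69 (SE, limma, adjusted p = 0.9999). That fit took the rectum and colon arrays of a mouse group as independent, and each combination of genotype and housing was 1 mouse group. With normexp background correction Egr2 no longer passed 2-fold in either pair, at 0.74 in IL18ko colon and -0.45 in WT colon.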

How the results depend on the processing

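Only 1 array stood for each group, so no alternative measures the spread between mice, and the leave-one-out fits for genotype and stress start from the 8 arrays as independent. For genotype, 3 of the 10 genes and 3043 probes were called. The genes called were 1 with 8 independent arrays, 0 without a filter on dim probes, 0 without the variance trend, 1 within the colon slide and 1 within the rectum slide, and 0 to 3 leaving out 1 array. The probes called were 32 with independent arrays, 1931 with the mean of a gene's probes, 1879 with median centring, 5316 with a random block for mouse group, 2 without a filter, 18 without the trend, 52 within the colon slide, 320 within the rectum slide and 6 to 3571 leaving out 1 array. For stress, 3 genes (Junb, Nr4a1 and Klf4) and 180 probes were called in the deposited ratios, which hold 8 of the 10 genes. The 23 probes called for stress became 0 with independent arrays, with the random block, without the filter and without the trend, 3 with the mean of a gene's probes, 2 with median centring, 40 with normexp, 4 with quantile normalization, 88 with probes above background on all arrays, 2 within the colon slide, 45 within the rectum slide and 0 leaving out 1 array. For tissue, 5 of the 10 genes were called after quantile normalization and 1 to 4 leaving out 1 pair, with 3480 to 10575 probes. For genotype by tissue the 113 probes became 30 in the deposited ratios, 396 without a filter, 199 without the trend and 46 with probes above background on all arrays. For stress by tissue the 50 probes became 8, 247, 93 and 11 in the same order, and 33 with normexp. For genotype by stress, leaving out 1 array gave 0 to 501 probes and 0 to 1 of the 10 genes. The cause of these changes was not tested.

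Of the 10 genes, those at least 2-fold between single arrays changed as follows. IL18ko minus WT in stress colon gave 2 in the deposited ratios and 2 with normexp, and in stress rectum 1 in the deposited ratios and 1 with quantile normalization. Stress minus control gave 1 with normexp in IL18ko colon, 0 in the deposited ratios and 0 with normexp in WT colon, and 1 with quantile normalization in WT rectum. Fosb and Egr2 were not among the 8 genes compared in the deposited ratios. Over those 8 genes, the scanner values and the deposited ratios gave the same counts in colon, 2 and 2 for IL18ko minus WT under stress and 0 and 0 for stress minus control in WT, so the lower counts there come from the genes left out. Median centring shifted the median of all genes by -0.14 for IL18ko minus WT in stress rectum, and the deposited ratios by -0.14 to 0.21 in the single-array pairs.

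Small differences that did not pass changed sign. For genotype, Atf3 was -0.0351 within the colon slide and -0.0621 to 0.39 leaving out 1 array. Egr2 was -0.0332 within the rectum slide and -0.14 to 0.57, Junb was -0.12 within the rectum slide, and Nr4a1 was -0.0134 within the rectum slide and -0.00107 to 0.20. Ier2 was 0.00324 with normexp, 0.0481 with quantile normalization, 0.0108 within the colon slide and -0.0282 to 0.0263. For stress, Fosb was -0.00541 with median centring, -0.31 within the colon slide and -0.16 to 0.25. For tissue, leaving out 1 pair gave Egr2 -0.31 to 0.38, Fos -0.0596 to 0.32, Junb -0.00638 to 0.50 and Nr4a1 -0.24 to 0.0152. The within-slide fits, and the removal of 15 probes more than 50 units under their local background from the normexp alternative, were chosen after seeing the data. The labels give no replicate numbers, so none was used as a block, and arrays were paired by mouse group and tissue.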
